A study of Mus musculus with 16 samples.

Results

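The genes described here are 10 regulators of the G1 phase of the cell cycle, measured as messenger RNA in P19 cells, a mouse embryonal carcinoma line. They are the D cyclins Ccnd1, Ccnd2 and Ccnd3, cyclin J (Ccnj), the kinases Cdk4 and Cdk6, the phosphatase Cdc25a, the ubiquitin-conjugating enzyme Cdc34 and the transcription factors E2f5 and E2f6. Members were chosen by gene name, and the RefSeq accessions of the probes gave the same names. All 10 were tested, of 18328 genes tested in all, and each of their 14 probes was well above background on all 16 arrays. The cells were transfected with a control, with a mimic of the microRNA let-7a, with an siRNA against Sfpq (siSfpq), or with the mimic and siSfpq together, and RNA was collected 48 h later. Each condition had 4 arrays of 1 colour, numbered replicates 1 to 4. In each condition arrays 1 and 2 differed by a median of 0.057 to 0.0717 log2 units per spot, close to the 0.0495 to 0.0632 between spots of 1 probe on 1 array, whereas other pairs of arrays of a condition differed by 0.114 to 0.366. Arrays 1 and 2 were therefore averaged and counted as 1 sample, which gave n = 3 per condition. Per the methods, replicate transfections of P19 cells were made for each condition, as many as the samples counted here. Whether they were independent cultures is not stated, so the p-values measure the spread between these samples.

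D cyclins bind Cdk4 and Cdk6, and the active kinases phosphorylate the retinoblastoma family, which releases E2F factors to transcribe genes for S phase. Cdc25a removes inhibitory phosphates from cyclin-dependent kinases, and Cdc34 works with SCF ubiquitin ligases that mark CDK inhibitors and other cell cycle proteins for degradation. Let-7 microRNAs pair through their seed with sites mainly in 3′ untranslated regions, and several regulators of proliferation, among them Ccnd1, Cdk6 and Cdc25a, are textbook let-7 targets. Sfpq is a nuclear RNA-binding protein of paraspeckles, and the arrays address whether its loss alters the response to let-7a.

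The transfected mimic carries the let-7a sequence shown first, with the seed in capitals (bases 2 to 8, RefSeq, GRCm38.p6 chr13:48538239-48538260, minus strand). Among the 14 probes, 1 contained the 7-base complement of that seed, CTACCTC, and its stretch around the match (capitals) is shown second. That probe lies in Cdk4 at chr10:126503162-126503221 of mm9. Of 55681 probes on the array, 204 contained these letters on the printed strand (0.366%). The third line is the 60-base probe for Ccnd2, printed because Ccnd2, the D cyclin with the narrowest range of condition means, rests on 1 probe alone (mm9 chr6:127098696-127098755, minus strand).
let-7a-5p: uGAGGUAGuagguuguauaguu
Cdk4 probe: gagaggtatctCTACCTCgaggagcctttg
Ccnd2 probe: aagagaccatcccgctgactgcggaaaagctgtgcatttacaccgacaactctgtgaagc
The 3′ untranslated regions were not searched here, so a match in a probe is a description of the letters and not of a site.

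Promoter windows of RefSeq (GRCm38.p6, 250 bases before to 50 after a transcription start) were found for 7 of the 10 genes. The letters TTTGGCGC or TTTCCCGC, forms of the E2F motif, were searched on both strands, and 514 of 32851 windows of all genes held one (1.56%). Among the 8 windows of these 7 genes, only that of Cdc25a did, with TTTGGCGC starting 67 bases before the start site. The stretch at chr9:109875486-109875545 (plus strand) is shown because it holds the motif, in capitals. Whether the motif bears on the level of Cdc25a was not tested.
Cdc25a promoter: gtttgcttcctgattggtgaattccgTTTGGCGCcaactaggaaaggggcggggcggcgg

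The knockdown was read first. The log2 level of Sfpq was 12.07, 11.98 and 11.99 in the control samples (arrays 1 and 2 averaged, replicate 3 and replicate 4, the order used throughout) and 10.56, 11.47 and 10.61 with siSfpq. It fell by 1.13 on the log2 scale (SE 0.19, limma adjusted p = 0.00748), and the groups did not overlap, although an exact two-sided permutation test of 3 against 3 samples cannot go below its value of 0.1. With the mimic and siSfpq together the levels were 11.31, 11.50 and 11.40, a difference from control of -0.61 (SE 0.19, limma adjusted p = 0.184). The mean was nearer to control in the double transfection than with siSfpq alone, by 0.53 (SE 0.19), with a limma adjusted p of 0.100 and of 0.0384 with the replicate as a block. Those groups overlapped, as the difference was 0.76, 0.03 and 0.79 within replicates, and without siSfpq replicate 3 it was 0.82 (limma adjusted p = 0.00012). Replicate 3 stood apart: Sfpq differed from control by -0.51 in it, against -1.51 and -1.37 in the other samples.

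The let-7 targets Lin28a, Hmga2 and Trim71 served as a reading of the mimic. Lin28a, an RNA-binding protein that blocks let-7 maturation, fell by 0.77 on the log2 scale (SE 0.11, limma adjusted p = 0.00245). Hmga2, a chromatin protein of proliferating embryonic cells, fell by 1.40 (SE 0.28, limma adjusted p = 0.0116), and Trim71 fell by 0.57 (SE 0.13, limma adjusted p = 0.0277). Within replicates Hmga2 changed by -1.74, -0.67 and -1.78, least in replicate 3, and Trim71 by -0.57, -0.61 and -0.51. Samples with the same replicate number deviated together from their condition means (correlations of 0.285 to 0.708), so fits with the replicate as a block are given for the 10 genes and Sfpq where they change a call, and as counts for the gene lists.

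The let-7a means lay below the control means for 8 of the 10 genes, and none passed the limma threshold, an adjusted p under 0.05 over all genes, against a background of 2.02% of all genes called lower and 4.89% called higher. At an unadjusted p under 0.05, 5 of the 10 differed, beside 20.8% of all genes. The median log2 change over the 10 was -0.38, beside -0.04 over all genes tested. With the replicate as a block 5 of the 10 were called lower (Ccnd1, Cdc25a, Cdc34, E2f5 and Ccnj), beside 10.2% of all genes, and none was called higher, beside 11.6%. Without replicate 3 in all conditions, 7 were called lower, as Cdk6 and E2f6 joined these 5, beside 14.5% of all genes called lower. Leaving out single libraries, Cdk6 was called lower without let-7a replicate 3 (3.69% of all genes), and Cdc25a and Cdc34 without siSfpq replicate 3 (4.94%).

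With siSfpq, Cdc25a and Cdk6 rose and Cdk4 fell, against backgrounds of 6.3% of all genes called higher and 7.31% called lower. With the replicate as a block 4 were called higher (Ccnd1, Cdk6, Cdc25a and Cdc34) and 4 lower (Ccnd3, Cdk4, E2f5 and E2f6), beside 18.4% and 19.4% of all genes. Without replicate 3 in all conditions 9 of the 10 were called, beside 49.2% of all genes, and without replicate 4, or without arrays 1 and 2, none was, as was none of all 18328 genes. Of single libraries, siSfpq replicate 3 raised the count to 7 when left out, beside 34.8% of all genes, and control replicate 3 lowered it to 1, beside 8.33%. Leaving out control replicate 4 or siSfpq replicate 4 lowered it to 0, beside 2.22% and 1.92%. The levels of each gene by sample are plotted next.

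**Figure D1:**
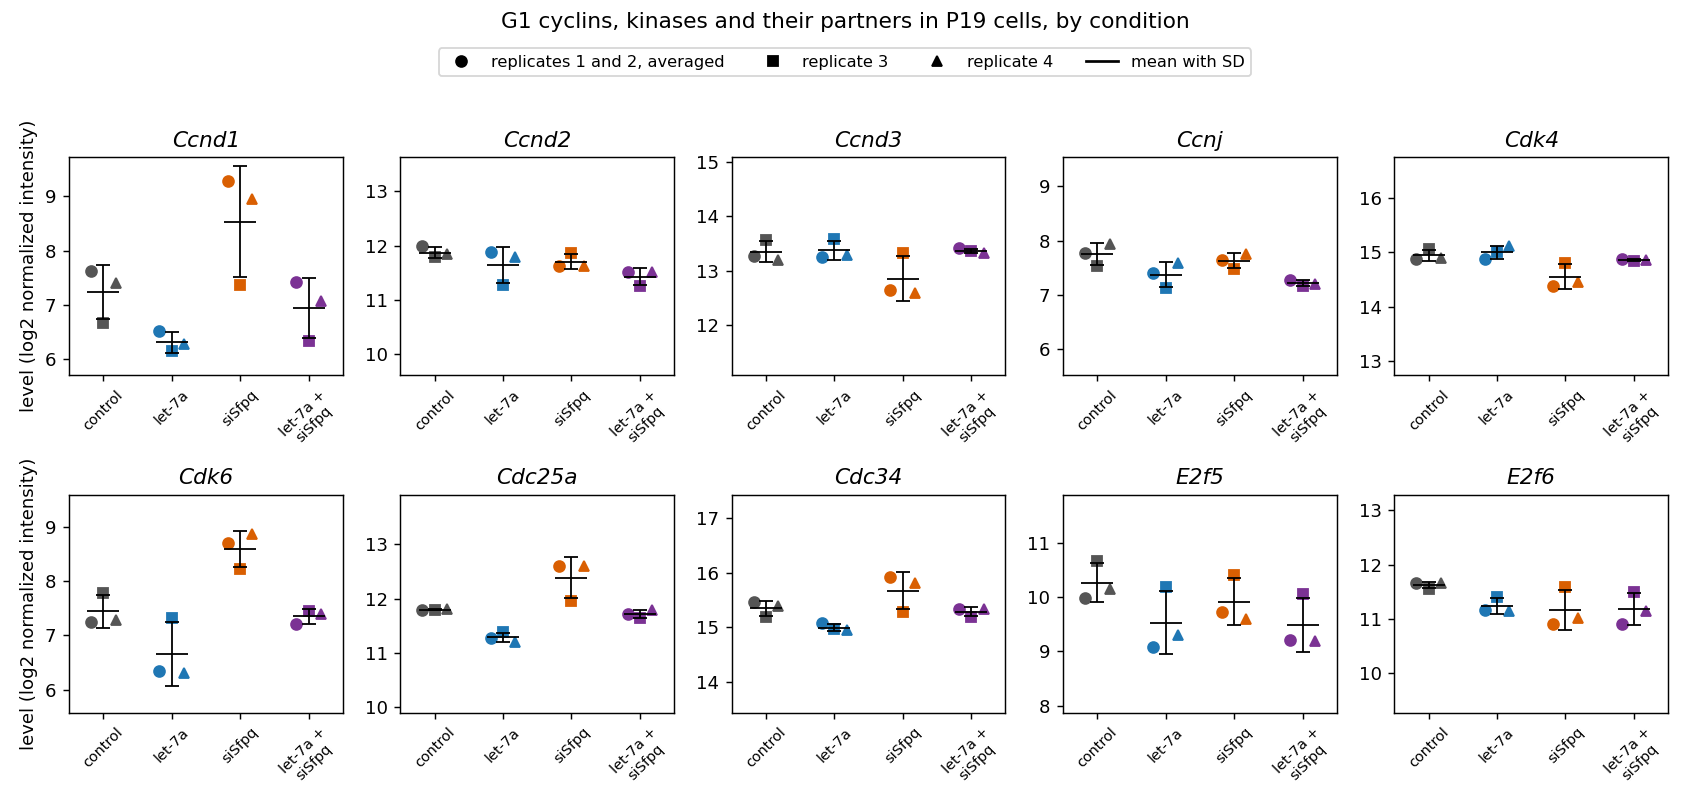
Log2 normalized intensity (y axis) of the 10 genes in the 4 conditions (x axis), with each of the 3 samples as a point, its shape giving the replicate, and the mean with its SD in black. Each panel spans the same number of log2 units. Ccnd1, Cdk6, Cdc25a and Cdc34 have their highest mean with siSfpq and their lowest with let-7a, while Cdk4 and Ccnd3 have their lowest with siSfpq.

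Ccnd1, the D cyclin induced by growth signals, had levels of 7.62, 6.67 and 7.41 in control and 6.52, 6.15 and 6.28 with let-7a. Every let-7a sample was below every control sample, and the mean was 1.89-fold lower (log2 change -0.92, SE 0.45), with a limma adjusted p of 0.273 and of 0.0226 with the replicate as a block. With siSfpq the levels were 9.28, 7.37 and 8.95, and replicate 3 lay within the control range while the others were above it. The mean was 2.46-fold that of control (log2 change 1.30, SE 0.45, limma adjusted p = 0.0746, and 0.0048 with the replicate as a block). With the mimic and siSfpq together Ccnd1 was at 7.41, 6.34 and 7.07, a difference from control of -0.29 with a 95% interval of -1.27 to 0.69. The order of the means was siSfpq, control, both treatments and let-7a, and no neighbours in that order differed past the threshold without the block.

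Ccnd2, the D cyclin of many stem and progenitor cells, had levels of 11.99, 11.79 and 11.84 in control and 11.88, 11.27 and 11.80 with let-7a. The groups overlapped, and the difference of -0.22 had a 95% interval of -0.56 to 0.11 (limma adjusted p = 0.478). Without let-7a replicate 3 it was -0.035. With siSfpq it was at 11.63, 11.86 and 11.62, again overlapping control, with a difference of -0.17 and an interval of -0.51 to 0.17. Both treatments together gave the lowest mean, at 11.52, 11.25 and 11.52, with all samples below control, a log2 difference of -0.44 (SE 0.15) and a limma adjusted p of 0.241.

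Ccnd3, the third D cyclin, was at 13.27, 13.56 and 13.20 in control and at 13.26, 13.58 and 13.28 with let-7a. The difference was 0.03 with a 95% interval of -0.36 to 0.42, so differences within that interval were compatible with these samples. With siSfpq 2 samples lay below control and replicate 3 did not, at 12.64, 13.33 and 12.58. The mean difference was -0.50 (SE 0.18), with a limma adjusted p of 0.0846 and of 0.0121 with the replicate as a block. Its 2 probes gave -0.53 and -0.46 for this comparison. With both treatments Ccnd3 was at 13.41, 13.35 and 13.33, inside the control range.

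Ccnj, a cyclin of little-known partners in mammals, was at 7.78, 7.54 and 7.94 in control and at 7.41, 7.13 and 7.58 with let-7a. The ranges overlapped, and within replicates the change was -0.37, -0.42 and -0.35. The mean difference was -0.38 (SE 0.16), with a limma adjusted p of 0.199 and of 0.0227 with the replicate as a block. Both treatments together gave 7.27, 7.16 and 7.21, all below control, a difference of -0.54 (SE 0.16) with a limma adjusted p of 0.15 and of 0.0109 with the block. With siSfpq alone the levels of 7.64, 7.49 and 7.76 overlapped control, with a difference of -0.12 and a 95% interval of -0.47 to 0.23. Leaving out single libraries moved that difference between -0.23 (without control replicate 3) and -0.03 (without control replicate 4). Its 2 probes gave changes of -0.26 and -0.50 with let-7a.

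Cdk4 and Cdk6, the kinase partners of the D cyclins, moved in opposite directions with siSfpq. Cdk4 was at 14.88, 15.06 and 14.90 in control and 14.88, 15.002 and 15.11 with let-7a, a difference of 0.05 with a 95% interval of -0.19 to 0.29. The Cdk4 probe with the seed complement gave 0.04, beside 0.10 and 0.03 for the other two. With siSfpq Cdk4 was at 14.38, 14.81 and 14.46, all below control, and it fell by 0.40 (SE 0.11, limma adjusted p = 0.0361). The 3 probes gave differences of -0.46, -0.39 and -0.34, and of these the last passed the threshold in a fit of all probes. With a single probe standing for the gene in the fit of genes, the second and the last kept the call and the first did not (limma adjusted p = 0.0486, 0.032 and 0.0508). The call on the gene was lost under 75th percentile scaling, without the intensity trend, with no filter on dim probes and with only the groups compared in the fit.

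Cdk6 was at 7.25, 7.79 and 7.29 in control and at 6.34, 7.33 and 6.31 with let-7a. Replicate 3 with let-7a lay within the control range and the other samples lay below it. The mean was 1.72-fold lower (log2 change -0.78, SE 0.28, limma adjusted p = 0.122, and 0.0523 with the replicate as a block). With siSfpq Cdk6 was at 8.70, 8.23 and 8.86, above all control samples, and rose 2.22-fold (log2 change 1.15, SE 0.28, limma adjusted p = 0.0227). That call was lost with only the groups compared in the fit (limma adjusted p = 0.0606). Within replicates the rise was 1.45, 0.44 and 1.57, so it was smallest in replicate 3, where Sfpq was lowered least. The change of Cdk6 with let-7a, at -0.90, -0.46 and -0.99, was also smallest in replicate 3, where Sfpq differed from control by 0.02 with let-7a. A link between the levels of Sfpq and Cdk6 was not tested. With both treatments Cdk6 was at 7.20, 7.46 and 7.40, a difference from control of -0.09 with an interval of -0.69 to 0.51.

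Cdc25a, the phosphatase that activates Cdk2 and Cdk4 complexes, was nearly constant in control, at 11.79, 11.80 and 11.80. With let-7a it was at 11.28, 11.38 and 11.21, all below control, a mean 1.42-fold lower (log2 change -0.51, SE 0.15), with a limma adjusted p of 0.07 and of 0.0272 with the replicate as a block. With siSfpq it was at 12.60, 11.95 and 12.60, all above control, and it rose by 0.59 on the log2 scale (SE 0.15, limma adjusted p = 0.0278). That call was lost with no filter on dim probes (limma adjusted p = 0.0525) and with only the groups compared in the fit (0.109). With both treatments it was at 11.72, 11.64 and 11.80, a difference from control of -0.08 with a 95% interval of -0.40 to 0.25. The change in its level with siSfpq was 0.82 and 0.80 in the samples other than replicate 3 and 0.16 in replicate 3.

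Cdc34 had levels of 15.46, 15.19 and 15.39 in control, 15.07, 14.97 and 14.94 with let-7a, and 15.92, 15.29 and 15.81 with siSfpq. All let-7a samples were below control, and siSfpq overlapped control through replicate 3. The difference with let-7a was -0.35 (SE 0.14), with a limma adjusted p of 0.178 and of 0.0268 with the replicate as a block. The difference with siSfpq was 0.33 (SE 0.14), with a limma adjusted p of 0.141 and of 0.0246 with the block, and it was 0.52 without siSfpq replicate 3. With both treatments it was at 15.33, 15.19 and 15.33, within the control range. Cdc34 rests on 1 probe, and whether that probe also binds RNA of the related gene Cdc34b was not tested.

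E2f5 and E2f6 are both known mainly as repressors of transcription, E2f5 with pocket proteins and E2f6 with polycomb proteins. E2f5 was at 9.98, 10.67 and 10.14 in control and at 9.08, 10.18 and 9.31 with let-7a, so that replicate 3 was highest in both. Within replicates the change was -0.90, -0.49 and -0.83, and the mean difference of -0.74 (SE 0.33) had a limma adjusted p of 0.233, and of 0.00104 with the replicate as a block. With siSfpq it was at 9.72, 10.41 and 9.60, a difference of -0.35 (SE 0.33), with a limma adjusted p of 0.521 and of 0.0215 with the block. It was -0.15 without control replicate 3, -0.60 without siSfpq replicate 3 and -0.20 without siSfpq replicate 4. With both treatments it was at 9.20, 10.05 and 9.19, a difference from control of -0.78 (SE 0.33), with a limma adjusted p of 0.377 and of 0.00214 with the block.

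E2f6 was at 11.66, 11.56 and 11.66 in control and at 11.16, 11.41 and 11.15 with let-7a, all below control, a difference of -0.39 (SE 0.18, limma adjusted p = 0.264). With siSfpq it was at 10.90, 11.58 and 11.03, where replicate 3 lay in the control range and the other samples lay below it. That difference was -0.46 (SE 0.18), with a limma adjusted p of 0.116 and of 0.0241 with the replicate as a block, and it was -0.70 without replicate 3 in all conditions and -0.30 without arrays 1 and 2. With both treatments E2f6 was at 10.91, 11.50 and 11.14, a difference of 0.02 from siSfpq alone with a 95% interval of -0.39 to 0.42.

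**Figure D2:**
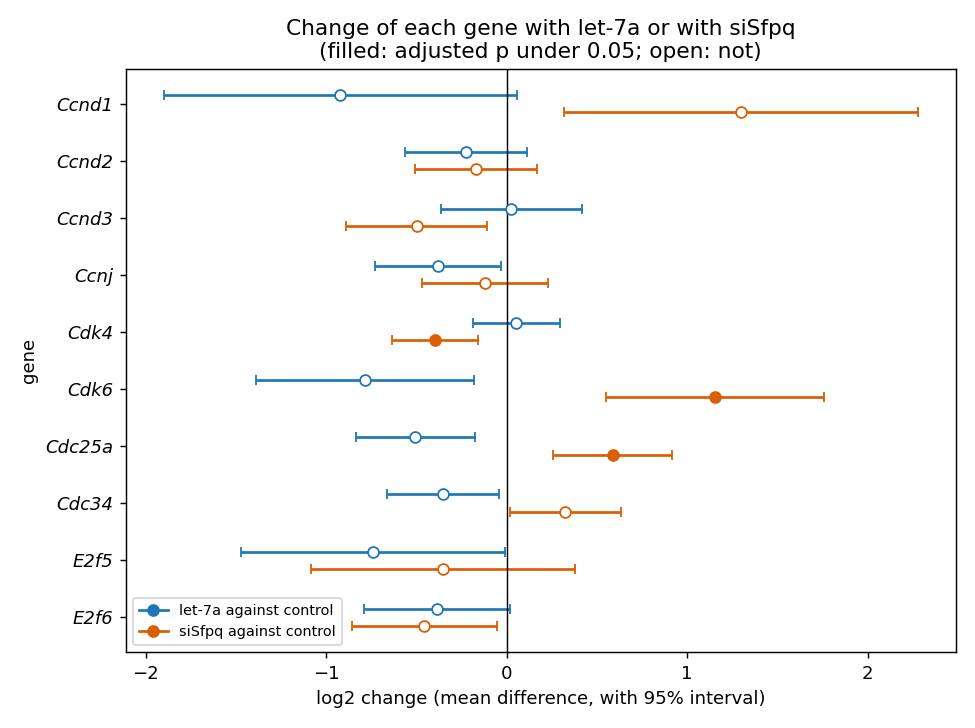
Log2 change of each gene (x axis, mean difference with its 95% interval) with let-7a or with siSfpq against control, with filled points for limma adjusted p-values under 0.05. Cdk6 and Cdc25a rise and Cdk4 falls with siSfpq, and no point of the let-7a comparison is filled.

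The comparison of both treatments with siSfpq alone gives the effect of the mimic when Sfpq is lowered, over samples other than those of let-7a against control. Ccnd1, Cdk6 and Cdc25a fell, against a background of 4.12% of all genes called lower and 6.17% called higher. Ccnd1 was 3.01-fold lower (log2 change -1.59, SE 0.45, limma adjusted p = 0.0457). Its groups overlapped, as siSfpq replicate 3 was at 7.37 and the averaged arrays 1 and 2 with both treatments were at 7.41. Cdk6 was 2.37-fold lower (log2 change -1.24, SE 0.28, limma adjusted p = 0.0212), and Cdc25a was 1.59-fold lower (log2 change -0.66, SE 0.15, limma adjusted p = 0.0225). The Ccnd1 call was lost with normexp background correction, under 75th percentile scaling, without the intensity trend, with no filter on dim probes and with only the groups compared in the fit, which also ended that of Cdc25a. Among 21 settings that left out replicates or single arrays, the call was lost in 8 for Ccnd1, 5 for Cdc25a and 4 for Cdk6. For Ccnd1 these include leaving out control replicate 4, let-7a replicate 3 or let-7a replicate 4, arrays outside this comparison that share the fit.

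With the replicate as a block 6 genes were called lower in that comparison (Ccnd1, Cdk6, Cdc25a, Cdc34, E2f5 and Ccnj) and 2 higher (Ccnd3 and Cdk4), beside 15.7% and 17.6% of all genes. Cdc34 differed by -0.39, E2f5 by -0.43 and Ccnj by -0.41, while Ccnd3 differed by 0.51 and Cdk4 by 0.31. The E2f5 value was -0.18 without siSfpq replicate 3, and -0.71 and -0.28 without replicates 3 and 4 of the double transfection. Ccnd3 and Cdk4 were thus higher where the mimic was added to siSfpq, and where it was added to control their differences were 0.03 and 0.05. Without the block neither passed the threshold with siSfpq present (limma adjusted p = 0.0861 and 0.0872), and in replicate 3 their differences there were 0.027 and 0.033. The 2 effects of the mimic differed by 0.49 for Ccnd3 and 0.26 for Cdk4 (SE 0.25 and 0.15, limma adjusted p = 0.820 and 0.837). Without replicate 4 in all conditions, or without arrays 1 and 2, none of the 10 genes was called in this comparison, nor any of all genes. The count was 7 without siSfpq replicate 3, beside 30.9% of all genes, and 1 without the double transfection's replicate 3, beside 8.44%. It was 0 without the latter's replicate 4 or without siSfpq replicate 4, beside 1.74% and 1.7% of all genes. The mean of Sfpq was also higher with both treatments than with siSfpq alone, a difference that over all samples passed the threshold with the block but not without it, and that was near 0 in replicate 3. In the other samples the addition of the mimic and the level of Sfpq cannot be told apart.

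**Figure D3:**
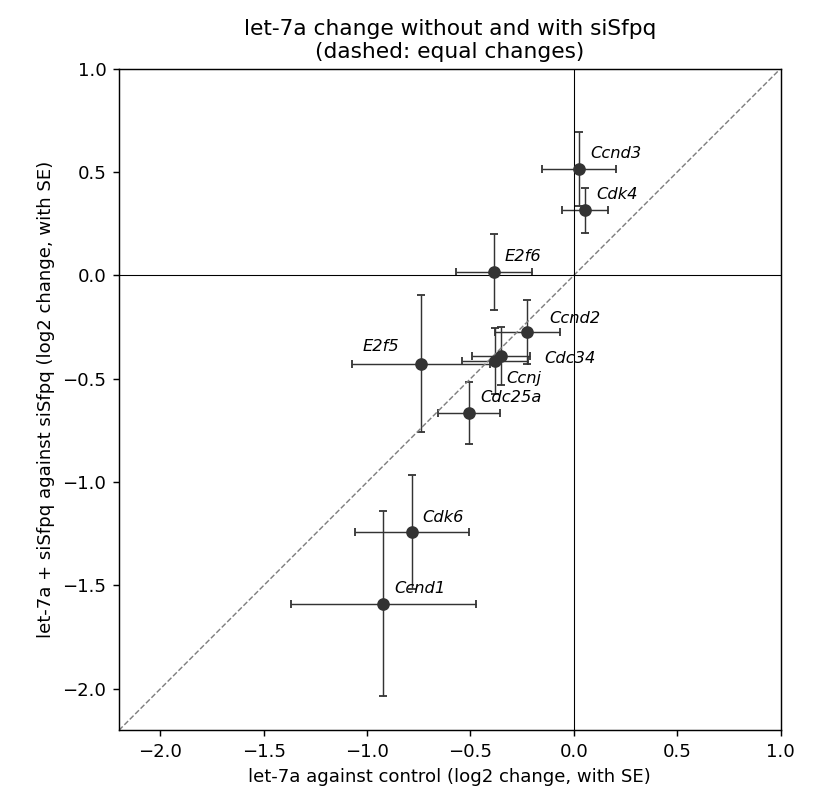
Log2 change with let-7a against control (x axis) and with both treatments against siSfpq alone (y axis) for the 10 genes, each with its SE. Points below the dashed line, such as Ccnd1 and Cdk6, have a more negative change in the presence of siSfpq, and Ccnd3 and Cdk4 have positive changes there.

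The difference between these 2 effects of let-7a, the interaction, was tested for each gene. It was -0.67 for Ccnd1 (SE 0.63), -0.46 for Cdk6 (SE 0.39), -0.16 for Cdc25a (SE 0.21) and 0.49 for Ccnd3 (SE 0.25), and the lowest limma adjusted p among the 10 genes was 0.820. Leaving out 1 library moved these values, that of Ccnd1 to -1.25 without siSfpq replicate 3 and to -0.37 without the double transfection's replicate 3, that of Cdk6 to -0.12 without let-7a replicate 3, and that of Cdc25a to -0.37 and -0.05 without siSfpq replicates 3 and 4. None of the 10 had an unadjusted p under 0.05, beside 6.31% of all genes, and 0% of all genes were called. With the replicate as a block 0% of all genes were called higher and 0.0218% lower, none of them among the 10. Without replicate 3 in all conditions, with 2 samples per condition, 4 were called, namely Ccnd3 and E2f6 with a positive and Cdk6 and Cdc25a with a negative interaction, beside 12.3% of all genes called with a positive and 10% with a negative one. Ccnd3 was also called without siSfpq replicate 3, at 0.73, beside 4.27% of all genes called with a positive interaction.

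Against control, both treatments together called none of the 10 genes with limma, beside 0.229% of all genes called lower and 1.29% called higher. With the replicate as a block E2f5 and Ccnj were called lower, beside 2.79% of all genes, and none was called higher, beside 5.35%. Against let-7a alone none was called, beside 0.96% called higher and 2.17% lower, and none with the block, beside 6% and 7.16%. At an unadjusted p under 0.05, 4 of the 10 differed from control, beside 11.8% of all genes, and 2 from let-7a, beside 16.5%. In that second comparison Cdc25a was higher by 0.43 (SE 0.15, limma adjusted p = 0.164) and Cdk6 by 0.69 (SE 0.28, limma adjusted p = 0.224).

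The rest of the G1 machinery was described with lists of genes, by counts and medians. The shares of all genes called, against which the counts are read, were for let-7a 4.89% (higher) and 2.02% (lower), and for siSfpq 6.3% and 7.31%. In the fit with the block these shares were 11.6% and 10.2% for let-7a, and 18.4% and 19.4% for siSfpq. The median over all genes was -0.04 with let-7a and 0.01 with siSfpq. Among 7 CDK inhibitors, which oppose the cyclin kinases, 4 rose with let-7a, with a median log2 change of 0.54. They include Cdkn1b (p27), which rose by 0.54 (SE 0.12, limma adjusted p = 0.0195), Cdkn2b (p15) by 0.54 (SE 0.14, limma adjusted p = 0.0363) and Cdkn2d (p19) by 0.46 (SE 0.10, limma adjusted p = 0.0207). With siSfpq 2 rose, Cdkn1a (p21) by 1.13 (SE 0.31, limma adjusted p = 0.0347) and Cdkn1b by 0.47 (SE 0.12, limma adjusted p = 0.0258). The median with siSfpq was 0.16. Cdkn1b was thus called higher in both comparisons, which share the control samples. With the block 5 were called higher with let-7a, Cdkn1a joining at 0.98 (limma adjusted p = 0.0832, and 0.00816 with the block). With siSfpq 3 were called higher with the block, and Cdkn2c (p18), at -1.31, was called lower (limma adjusted p = 0.0862, and 0.0461 with the block).

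Of the 7 genes tested on the cyclin E, cyclin A and Cdk2 list, Ccne1, which drives entry into S phase, fell with let-7a by 0.70 (SE 0.15, limma adjusted p = 0.0193). Cables1, a protein that links CDKs to kinases that inhibit them, rose with let-7a by 0.60 (SE 0.11, limma adjusted p = 0.0065) and fell with siSfpq by 0.62 (SE 0.11, limma adjusted p = 0.00772). With the block 4 genes of that list were called lower and 1 higher with let-7a, and 2 lower and 1 higher with siSfpq. Cdk2, the partner of cyclins E and A, was among those lower in both, at -0.29 and -0.33 (block adjusted p = 0.0493 and 0.0195). Among 15 pocket protein, E2F and DP genes, E2f3, an activator, fell with let-7a by 0.53 (SE 0.11, limma adjusted p = 0.0147), and E2f8 and Lin54 rose with siSfpq by 0.82 and 0.63 (limma adjusted p = 0.0365 and 0.0356). Rb1, the retinoblastoma gene, differed by 0.53 with let-7a (limma adjusted p = 0.0517, and 0.00679 with the replicate as a block). With the block 4 of the 15 were called lower with let-7a (E2f3, E2f4, E2f7 and Tfdp1) and 2 higher (Rb1 and Rbl2), and with siSfpq 5 were called higher and 3 lower. Of 8 Cdc25 and checkpoint kinase genes all 8 were lower with let-7a, with none called and with Pkmyt1 and Wee1, kinases that inhibit Cdk1, called lower with the block. Cdc25c, a mitotic relative of Cdc25a, rose with siSfpq by 0.78 (SE 0.21, limma adjusted p = 0.0309), and 2 of the 8 were called higher with the block.

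On the SCF and G1 ubiquitin ligase list none of 12 genes was called with let-7a, and with the block Skp2 was called lower and Skp1 higher. Skp1 is the gene as RefSeq accessions name it, and the array's entry under its older symbol Skp1a, kept out of the counts, differed by -0.12 with let-7a (SE 0.75). With siSfpq 3 fell: Btrc by 0.54, Ube2r2, a relative of Cdc34, by 0.39, and Fbxw7, the F-box protein for cyclin E, by 0.30 (limma adjusted p = 0.0363, 0.0283 and 0.0489), and with the block 4 were called lower and 2 higher. Of 19 E2F target and DNA replication genes 17 were lower with let-7a, with a median of -0.42 beside -0.04 over all genes. Of these Rrm2, a ribonucleotide reductase subunit, and Cdt1, a licensing factor, fell, by 0.54 and 0.48 (limma adjusted p = 0.0449 and 0.0279), and 11 were called lower with the replicate as a block, beside 10.2% of all genes. With siSfpq none was called, and 4 were called higher and 3 lower with the block. All 12 mitosis genes were lower with let-7a, with none called and a median of -0.46, and 4 were called lower with the block. All 12 were higher with siSfpq, with a median of 0.47, of which Ccnb1 rose by 0.73 and Ccnf by 0.71 (limma adjusted p = 0.0263 and 0.0291), and 9 were called higher with the block, beside 18.4% of all genes.

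Among 21 other cyclins and CDKs, Ccng1, a p53 target, rose with let-7a by 0.69 (SE 0.14, limma adjusted p = 0.0116) and with siSfpq by 0.55 (SE 0.14, limma adjusted p = 0.026). Ccnjl, the closest relative of Ccnj, fell with siSfpq by 1.84 (SE 0.33, limma adjusted p = 0.00887). Cdk14 and Cdk16 fell with siSfpq by 0.81 and 0.40 (limma adjusted p = 0.0129 and 0.0491). With the block 2 of the 21 were called higher and 2 lower with let-7a, and 5 higher and 5 lower with siSfpq.

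**Figure D4:**
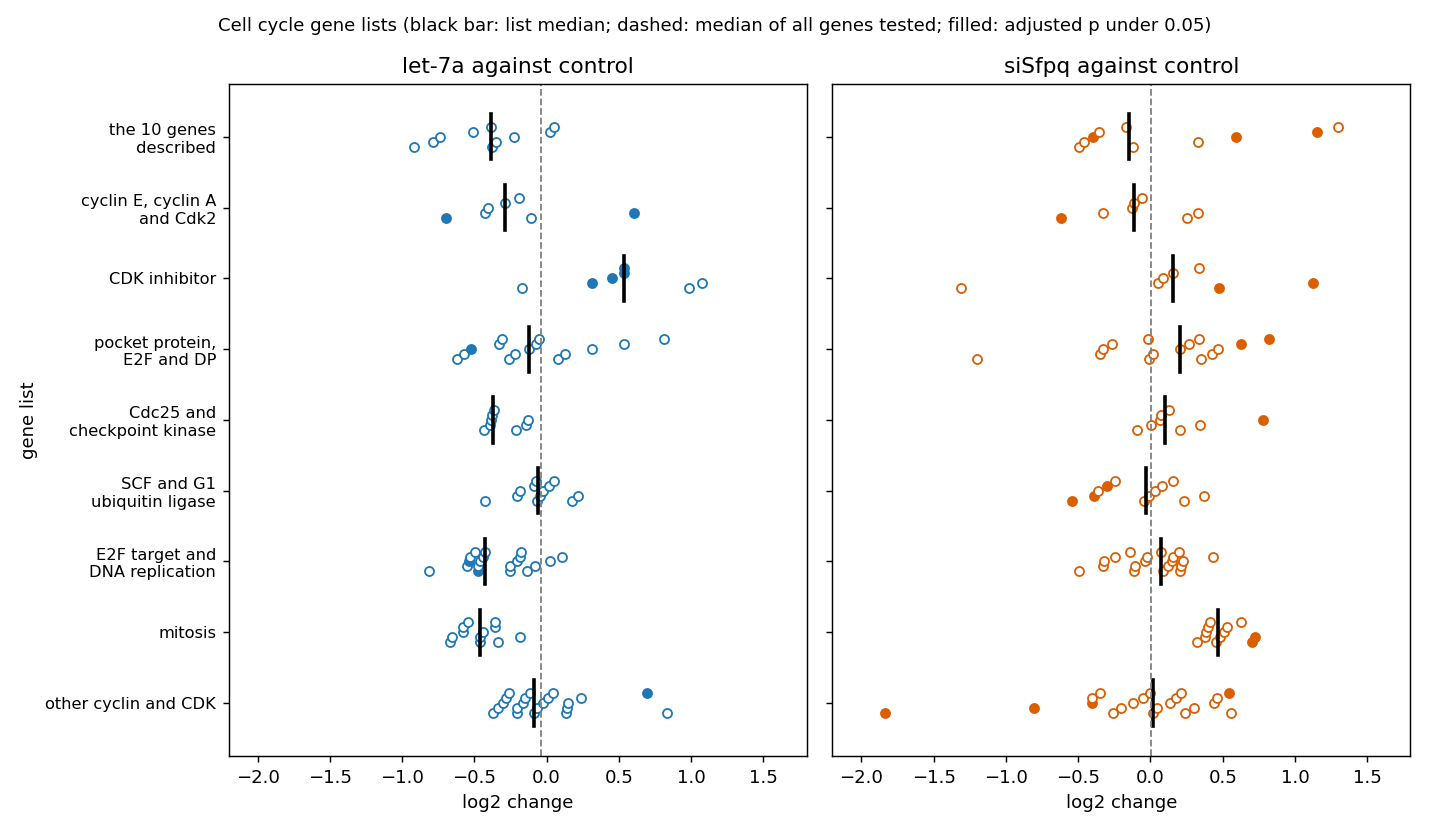
Log2 change (x axis) of each gene of the cell cycle lists (y axis), with let-7a (left) and siSfpq (right) against control, filled where the limma adjusted p was under 0.05, with the list median as a black bar and the median of all genes tested as a dashed line. The mitosis genes lie below 0 with let-7a and above 0 with siSfpq, and 6 of 7 CDK inhibitors lie above 0 with let-7a.

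Markers of cell identity moved in the same comparisons. Of 10 neuron markers 8 rose with let-7a and 7 fell with siSfpq, beside 4.89% and 7.31% of all genes, and the counts with the block were also 8 and 7. Their mean log2 level per sample was 9.39 to 9.85 in control, 10.5 to 11.2 with let-7a, 8.75 to 8.81 with siSfpq and 9.72 to 9.94 with both. Neurod1 rose by 2.75 with let-7a and fell by 1.64 with siSfpq (limma adjusted p = 0.000945 and 0.0134). Of 7 tested pluripotency markers 5 were lower with let-7a and 2 higher. Nanog, Utf1 and Lin28a fell, of which Lin28a is also a let-7 target and was used above to read the mimic. With siSfpq Dppa4 rose by 1.84 and Utf1 by 0.78, and Sox2 fell by 0.72 (limma adjusted p = 0.0398, 0.0199 and 0.0276). The mean level of the 7 markers was 11.3 to 11.5 in control, 10.9 to 11.3 with let-7a, 11.6 to 11.8 with siSfpq and 11.3 to 11.5 with both. Pou5f1, a defining gene of P19 cells, differed by -0.15 with let-7a and by 0.07 with siSfpq (limma adjusted p = 0.642 and 0.794). With the block 4 of these markers were called lower with let-7a, and 2 higher and 1 lower with siSfpq.

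Of 6 tested mesendoderm markers T fell by 2.29 and Gsc fell by 1.44 with let-7a (limma adjusted p = 0.00358 and 0.00119), and T rose by 1.91 with siSfpq (limma adjusted p = 0.0105). The block gave 1 higher and 2 lower with let-7a, and 3 higher with siSfpq. Their mean level was 6.75 to 6.94 in control, 6.195 to 6.75 with let-7a, 7.44 to 8.14 with siSfpq and 6.79 to 7.54 with both. Of 4 fibroblast markers Col1a2 rose with let-7a by 0.71 (limma adjusted p = 0.0376), and none was called with siSfpq, while the block gave 2 higher with let-7a, and 1 higher and 2 lower with siSfpq. Their mean level was 8.12 to 8.42 in control, 8.85 to 8.88 with let-7a, 7.85 to 8.24 with siSfpq and 8.72 to 8.95 with both. None of 3 glia markers was called with either, and the block added Olig2, higher with let-7a (block adjusted p = 0.0165). With let-7a 1 of the 3 was higher and 2 were lower, with a median log2 change of -0.13. The glia mean level, the lowest of all the lists, was 4.53 to 5.09 in control, 5.03 to 5.27 with let-7a, 4.43 to 4.95 with siSfpq and 4.35 to 5.01 with both. In bulk RNA a change in the share of cells of a kind and a change of RNA per cell cannot be told apart, and the part of these markers in the levels of the G1 genes was not tested.

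The 3 genes most like each of 4 members were named by Pearson's r of log2 levels over the 12 samples, which share conditions and replicates. For Ccnd1 they were Rxrb, Get4 and Ash2l (r of 0.990, 0.988 and 0.988). For Cdk6 they were Kif20b, Plekhf2 and Kbtbd2 (0.990, 0.989 and 0.987), and for Cdc25a Gar1, Trip13 and Nol6 (0.992, 0.992 and 0.991). For Ccnd2 they were Pbx3, Ube4b and Phf14, with lower values (0.890, 0.887 and 0.852).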

How the data were processed

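The authors deposited the intensity of each spot on 16 Agilent arrays from Feature Extraction 10.7.3.1. The processed intensities are background-subtracted and detrended within each array. They also deposited a log2 table, quantile normalized with limma per the methods, whose ranks equal those of the median spot intensities. Here log2 processed intensities were quantile normalized between arrays with limma 3.58.1 in R 4.3.3. Between 33733 and 38464 of 59305 spots per array were well above background. Spots marked as outliers were dropped, those of 1 probe averaged, and probes well above background on all arrays of a condition were kept. Probes were named through RefSeq accessions, and the probes of a gene were averaged. A single limma fit with an intensity trend took all 12 samples of the 4 conditions, with two-sided Benjamini-Hochberg adjusted p-values over all genes.

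Same-numbered samples correlated in their deviations (0.285 to 0.708) and other samples by -0.625 to 0.204, so the numbers were taken to pair samples. Replicates 1 and 2 lay on slide 1, and replicates 3 and 4 on slide 2. The members and lists were chosen with earlier results of these data known. Named genes are the 10 members, Sfpq, Lin28a, Hmga2, Trim71, up to 4 called genes per list with the largest change and 3 genes per likeness. Rb1, Pou5f1, Nanog and further list genes were named after their values were seen. The fit was tested on simulated data.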

Additional observations from a re-analysis of the deposited data

How the results depend on the processing

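The number of arrays limits the precision, and with 3 samples per condition the calls depend on each of them. Across 60 results of the 10 genes and their alternatives, 1914 of 1962 values kept their direction and 48 did not. With the replicate as a block the members called were 5 with let-7a (21.8% of all genes), 8 with siSfpq (37.8%), 2 with both against control (8.14%) and 8 with both against siSfpq (33.3%). Without it they were 0, 3, 0 and 3, beside 6.91%, 13.6%, 1.52% and 10.3% of all genes. With arrays 1 and 2 counted separately they were 4, 7, 3 and 7, and 2 for both against let-7a, beside 19.8%, 35.9%, 7.83%, 32.3% and 14.2% of all genes. With only the groups compared they were 1 with let-7a, 0 with siSfpq and 1 with both against siSfpq, beside 8.96%, 0% and 1.21% of all genes, and the change of Sfpq, -1.13, was no longer called. With no filter on dim probes 1 member was called with siSfpq, beside 5.53% of the 27382 genes then tested. The slide as a block left each of these counts within 1.5 times, and the causes were not tested.

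Leaving out replicates gave 0 to 7 members called with let-7a, 0 to 9 with siSfpq, 0 to 4 with both against control, 0 to 5 against let-7a, 0 to 8 against siSfpq, and 0 to 4 for the interaction. The high ends came without replicate 3 in all conditions, where 30%, 49.2%, 18.2%, 26.6%, 47% and 22.3% of all genes were called. The change of Sfpq ranged from -1.44 to -0.94. Small differences changed sign. Under 75th percentile scaling these were Ccnd3 and Cdk4 with let-7a (-0.055 and -0.057), Ccnd3 with both against let-7a (0.074) and E2f6 with both against siSfpq (-0.068). With arrays 1 and 2 counted separately they were Ccnd3 and E2f5 with both against let-7a (0.032 and 0.00096). For Ccnd3 in that comparison the brightest probe, alone, gave 0.034, and its other probe gave -0.012 with both against control. One Ccnj probe gave an interaction of 0.017. Leaving out replicates gave ranges across 0 with let-7a for Ccnd3 (-0.076 to 0.14) and Cdk4 (-0.026 to 0.11). With both against control they were Ccnd1 (-0.57 to 0.0092), Ccnd3 (-0.055 to 0.13) and Cdk6 (-0.19 to 0.083). With both against let-7a they were Ccnd3 (-0.089 to 0.10), E2f5 (-0.32 to 0.29) and E2f6 (-0.21 to 0.044), and with both against siSfpq E2f6 (-0.14 to 0.22). For the interaction they were Ccnd2 (-0.24 to 0.041), Ccnj (-0.16 to 0.071) and Cdc34 (-0.23 to 0.046).

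The number of all genes called with let-7a was 896 higher and 370 lower, 2120 and 1872 with the block, 2839 and 2665 without replicate 3, 2 and 0 without replicate 4, and 3 and 0 without arrays 1 and 2. With siSfpq it was 1154 and 1340, 3380 and 3548 with the block, 4366 and 4650 without replicate 3, 1522 and 1304 under 75th percentile scaling, and 702 and 812 with no filter on dim probes, where 27382 genes were tested. It was 0 and 0 without replicate 4, without arrays 1 and 2, and with only the groups compared.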
